A study of Homo sapiens with 6 samples.

Results

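The genes described here encode the translation initiation factors (eIF), the elongation factors (eEF) and the aminoacyl-tRNA synthetases, measured in A549 cells with and without cisplatin. Members were taken by name from the probe table of the array: a single symbol that starts with EIF or EEF and a digit, or a synthetase symbol such as AARS1 or WARS2, with the EIF2AK kinases left out. This gave 57 probe sets for 54 genes, of 7840 probe sets with a single symbol for 7713 genes, and all 57 were bright enough to be tested. A further 6 probe sets that the table pairs with several symbols, among them those of EIF4A1, EIF4A2, EEF1B2, EIF3C, MARS1 and QARS1, were left out by the same rule.

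A549 is an established line of human lung adenocarcinoma. On the 3 cisplatin arrays the cells had been exposed for 1 hour to 50 µM cisplatin, a DNA-crosslinking platinum compound, and on the 3 control arrays they had been in medium without it. Both groups then spent 10 hours in drug-free medium before total RNA was taken, and the series description names 3 independent experiments. The values are probe set intensities, the brightness of a set of short probes for a transcript, and the fold is that of cisplatin over control.

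In translation, eIF2 carries the initiator tRNA to the small ribosomal subunit, eIF4F binds the cap of the messenger RNA, and eIF3 holds the assembly together until the large subunit joins. The elongation factors then bring charged tRNAs and move the ribosome along, and each synthetase charges the tRNAs of its own amino acid. Cells under stress are known to slow initiation by phosphorylating eIF2 or by freeing the eIF4E-binding proteins from mTOR control, steps that act on the proteins and that transcript levels do not measure. The eIF2 branch also raises the transcription factor ATF4, whose known targets include many cytosolic synthetase genes.

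No transcript of this machinery passed the test. In limma, with Benjamini-Hochberg adjustment over all 6559 tested probe sets, 0 of 57 members had an adjusted p under 0.05, where 0.29% of all tested probe sets passed, and the lowest adjusted p of a member was 0.919. An unadjusted p under 0.05 was found for 1 member, FARS2, against 5.03% of all tested probe sets. The median log2 fold of the members was -0.01, with 24 higher and 33 lower, beside a median of 0.04 and 60.5% higher over all tested probe sets. Of the 57 folds, 52 were smaller in size than 0.2 on the log2 scale (91.2%, against 75.0% of all tested probe sets). Smaller than their own standard error were 44 (77.2%, against 67.4%). Members were brighter than most probe sets. In the brightness range of the middle 29 members, tested probe sets had a median of 0.01 with 52.5% higher. Of them, 87.8% were under 0.2 and 69.7% under their standard error. The 29 members there had a median of -0.01 with 44.8% higher, and shares of 100% and 79.3%.

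The intervals limit how large an undetected difference could be. For 50 of the 57 probe sets the 95% interval of the fold, taken for each probe set alone, lay within 1.5-fold in either direction. With no constant added to the intensities this number was 48, and EIF4E was among those outside. Without control 2 or without cisplatin 3 it was 47, and with a constant of 50 it was 55. The 7 exceptions with the constant of 11.8 and all arrays were EIF4EBP2, EIF3B, EIF6, EIF1AX, EIF5A2, WARS2 and FARS2. The same held for 66.5% of all tested probe sets, and for 90.5% of those within the brightness range of the middle 29 members, of which 27 had such an interval. The log2 folds of the members ran from -0.51 for EIF3B to 0.30 for EIF4EBP2.

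**Figure D1:**
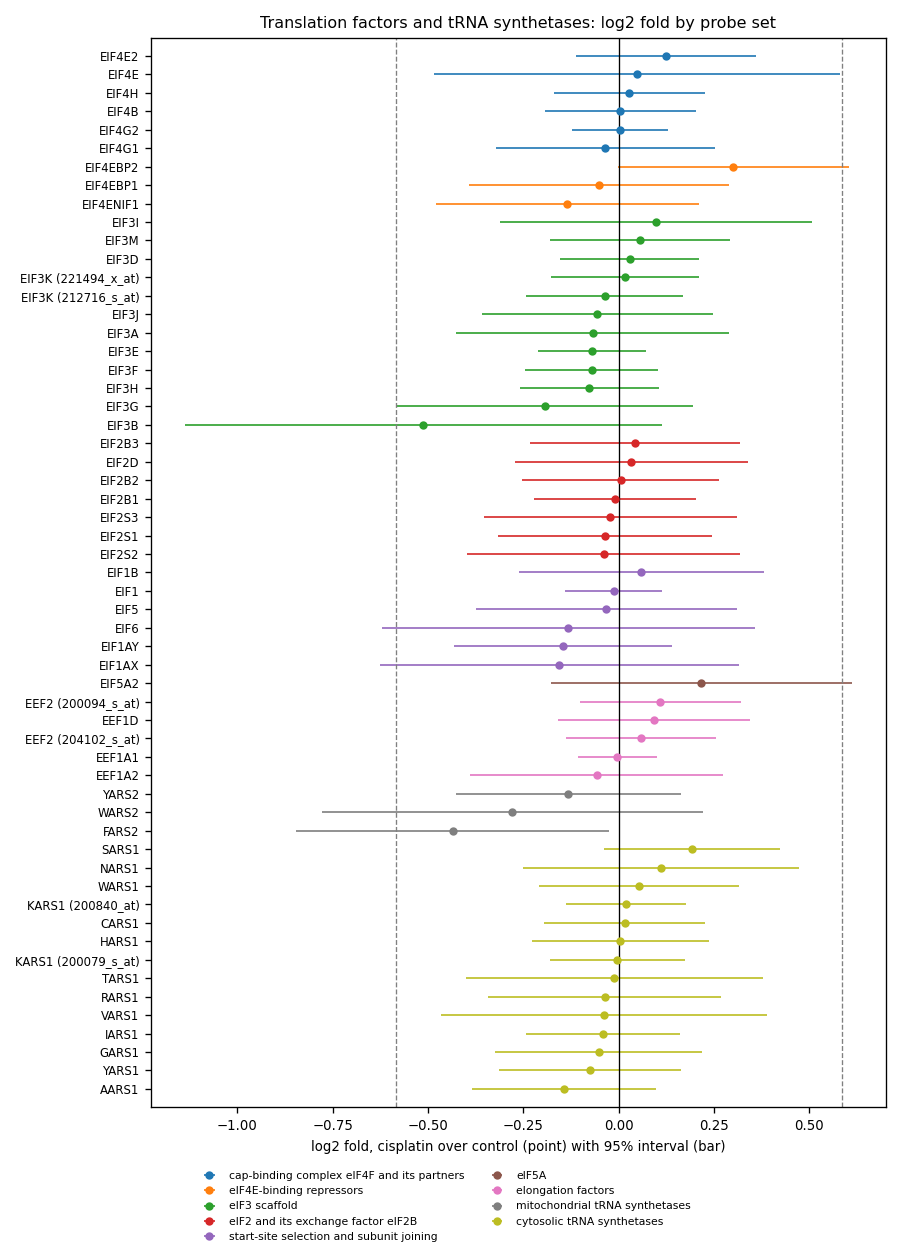
Log2 fold of cisplatin over control (x axis) for each of the 57 member probe sets (y axis), grouped by role, with the 95% interval of the limma fit as a bar. Dashed lines mark 1.5-fold in either direction; 50 intervals lie between them, and the folds run from -0.51 (EIF3B) to 0.30 (EIF4EBP2).

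Precision is limited by having only 3 arrays in each group, whose median intensities were 57.2 to 67.2. On the first principal component, control 1 (14.4) and cisplatin 2 (17.1) stood away from the remaining 4 arrays (-12.4 to -1.69). RNA integrity can be read from ACTB, as its 3′ over its 5′ control signal: this ratio was 2.20 to 2.98 on controls and 2.67 to 3.67 after cisplatin, and in each group the lowest value was that of control 1 or cisplatin 2. Of the epithelial markers, KRT8, KRT18 and KRT7 had intensities of 1523 to 6165 and KRT19 120 to 152, while CDH1, EPCAM and CLDN4 stayed at 46.1 or less. The 3 blood markers measured were between 7.84 and 61.4, the 3 endothelial ones between 1.40 and 85.6, and the 3 stromal ones between -2.71 and 50.6; their part in the results was not tested.

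The cap-binding group had log2 folds from -0.03 to 0.12 over 6 probe sets. All 6 intervals lay within 1.5-fold, that of EIF4E by a narrow margin (upper limit 0.581 against 0.585 on the log2 scale). EIF4G2, which encodes a relative of the eIF4G scaffold, read 3138, 3203 and 3044 on the controls and 3209, 3102 and 3092 after cisplatin. Its groups overlap and its log2 fold was 0.00 (SE 0.06). EIF4G1, the scaffold of eIF4F, went from 97.1 ± 1.70 to 94.5 ± 4.68 (mean ± SD, n = 3 each), a log2 fold of -0.03 (SE 0.13). EIF4B and EIF4H, which assist the helicase of the complex, had log2 folds of 0.00 and 0.03. EIF4E2, a cap-binding relative of eIF4E, had the highest log2 fold of the group, from 640.2 ± 54.5 to 698 ± 47.7, and did not pass (log2 0.12, SE 0.10). EIF4E, the cap-binding protein itself, was measured by a dim probe set, with 17.2, 35.7 and 19.5 on the controls and 31.2, 20.3 and 22.8 after cisplatin. Its log2 fold was 0.05 with a 95% interval of -0.48 to 0.58, on a scale with a constant of 11.8 added to all values. With no constant the log2 fold of EIF4E was 0.09 (SE 0.35), and its 95% interval was then not within 1.5-fold.

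Among the repressors that hold eIF4E, EIF4EBP2 had the highest log2 fold of all members. It read 89.9, 87.6 and 74.3 on the controls and 106, 104.9 and 106.3 after cisplatin, so the groups do not overlap. The difference did not pass (log2 0.30, SE 0.14, unadjusted p = 0.0518, adjusted p = 0.976). Groups without overlap were found for 3 members, or 5.26%, where 11% of all tested probe sets were separated in this way. EIF4EBP1, the best known of these repressors, went from 282 ± 49.0 to 270.3 ± 27.7 (log2 -0.05, SE 0.15), with control 3 the lowest of its 6 arrays. EIF4ENIF1, which carries eIF4E into the nucleus, had a log2 fold of -0.13 (SE 0.15), with 54.3 on cisplatin 2 and 65.0 to 75.6 on the other 5 arrays.

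For eIF2 and its exchange factor eIF2B, the point at which stress kinases act, the log2 folds of the 7 probe sets spanned only -0.04 to 0.04. EIF2S1, the subunit that the kinases phosphorylate, read 303, 353 and 374 on the controls and 362, 333 and 308 after cisplatin. The groups overlap, and the log2 fold was -0.04 with a 95% interval of -0.32 to 0.24. EIF2S2 varied more, from 1149 on control 1 to 1819 on control 3, with 1351 to 1658 after cisplatin. Its log2 fold was -0.04 (SE 0.16), and without control 1 it was -0.24 (SE 0.10, adjusted p = 0.815). EIF2B3, part of the catalytic portion of eIF2B, had the highest value of the group at 0.04 (SE 0.12), and EIF2B1 and EIF2B2 lay at -0.01 and 0.01. EIF2D, which can place a tRNA on the ribosome without eIF2, had a log2 fold of 0.03 (SE 0.14).

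Of the 6 factors of start-site selection and subunit joining, 5 had log2 folds below 0 and 0 passed. EIF1, which guards the choice of the start codon, had means of 4975 ± 66.4 and 4935 ± 306 (log2 -0.01, SE 0.06). EIF1B, its close relative, went from 505.8 ± 100.4 to 522 ± 30.4 (log2 0.06, SE 0.14). EIF1AX, which works beside eIF1 on the scanning subunit, read 251, 407 and 428 on the controls and 387, 266 and 305 after cisplatin. Its low values were those of control 1 and cisplatin 2, the arrays with the lowest 3′/5′ ratio in their groups. Its log2 fold was -0.16 (SE 0.21). With the ratio as a covariate the log2 fold was -0.43 (SE 0.11, adjusted p = 0.132), and without control 1 it was -0.39 (SE 0.16, adjusted p = 0.773). EIF6, which keeps the subunits apart, stood out for its spread after cisplatin, with 1268 on cisplatin 2 against 669 and 790.1 (log2 -0.13, SE 0.22). Without cisplatin 2 the log2 fold of EIF6 was -0.40 (SE 0.16, adjusted p = 0.764). EIF5, the activator of GTP hydrolysis by eIF2, had a log2 fold of -0.03 (SE 0.15).

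The eIF3 scaffold was covered by 12 probe sets for 11 subunits, with a median log2 fold of -0.06, 8 lower, 4 higher and 0 past the threshold. EIF3B, a core subunit, had the lowest fold of all members and also the widest spread. It read 129.6, 130.0 and 74.1 on the controls and 47.7, 109.7 and 70.2 after cisplatin, so control 3 lies below cisplatin 2. The log2 fold was -0.51 (SE 0.28, adjusted p = 0.999). When each array was left out it ran from -0.78 without cisplatin 2 to -0.26 without cisplatin 1. Without cisplatin 2 the unadjusted p in limma was 0.0170 (adjusted p = 0.663). With the 3′/5′ ratio as a covariate the log2 fold of EIF3B was -0.24 (SE 0.22). EIF3E, another subunit, was measured with a small error, at 2059, 2131 and 2153 on the controls and 1985, 2021 and 2036 after cisplatin. All 3 of its cisplatin values lie below all 3 controls, but the difference was small and did not pass (log2 -0.07, SE 0.06, adjusted p = 0.999). EIF3I had the highest value of the group at 0.10 (SE 0.18), with a control range of 581 to 956. EIF3A, EIF3D, EIF3F, EIF3H, EIF3J and EIF3M all lay between -0.08 and 0.06. With the 3′/5′ ratio as a covariate in limma, EIF3A was at -0.26 (SE 0.09, adjusted p = 0.282). EIF3I was then at 0.31 (SE 0.12, adjusted p = 0.325). EIF3G was at -0.19 (SE 0.17), or at -0.39 (SE 0.14, adjusted p = 0.963) without control 3. Both probe sets of EIF3K were near 0, at 0.02 and -0.04 (SE 0.09 each).

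**Figure D2:**
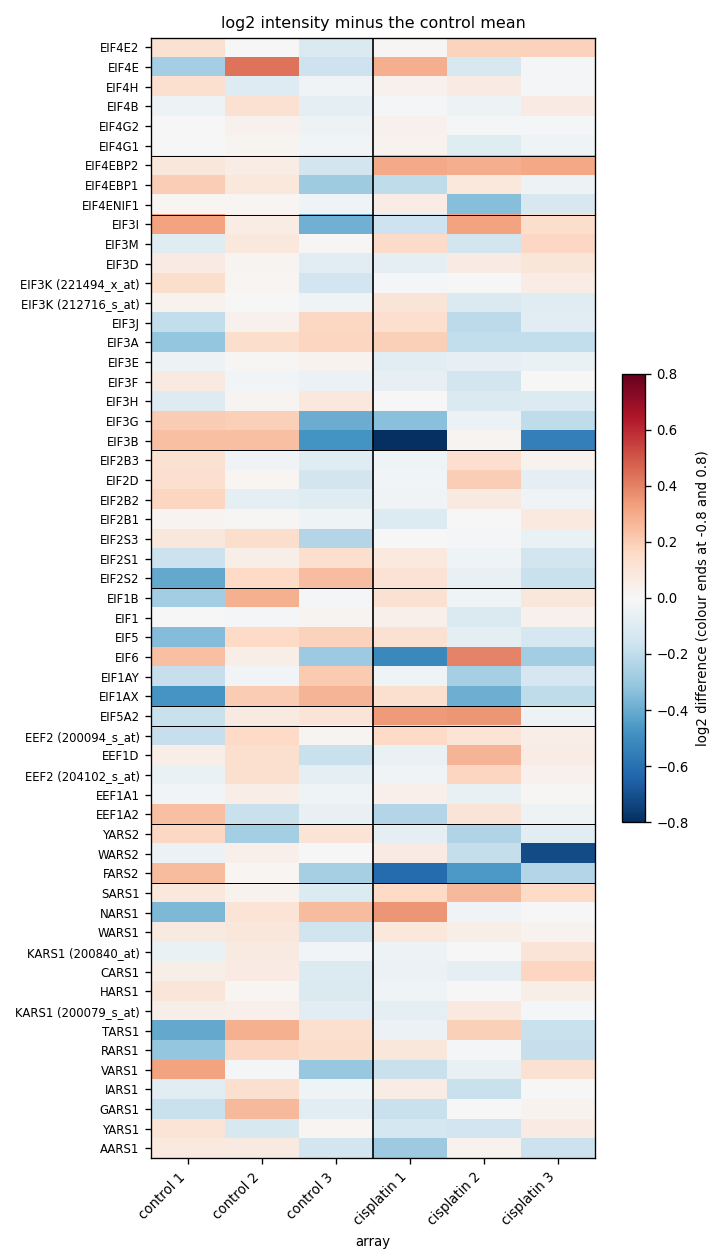
Heat map of log2 intensity minus the mean of the 3 controls for the 57 member probe sets (rows, in role order, with lines between roles) on the 6 arrays (columns). The red cells of EIF4EBP2 on all 3 cisplatin arrays (106, 104.9 and 106.3 against 74.3 to 89.9) stand beside mixed rows such as EIF6, where cisplatin 2 (1268) is red and cisplatin 1 (669) is blue.

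The elongation factors had log2 folds from -0.06 to 0.11 over 5 probe sets, and all 5 intervals lay within 1.5-fold. EEF1A1, which brings charged tRNAs to the ribosome, read 8044, 8466 and 7949 on the controls and 8394, 7822 and 8187 after cisplatin. Its log2 fold was 0.00 with a 95% interval of -0.11 to 0.10, the smallest standard error of all members (0.05). Its tissue-restricted paralog EEF1A2 went from 297 ± 47.8 to 284 ± 34.4 (log2 -0.06, SE 0.15). EEF2, the factor that moves the ribosome on, had a pair of probe sets with log2 folds of 0.11 (SE 0.09) and 0.06 (SE 0.09), and both pairs of groups overlap. EEF1D, part of the exchange factor of eEF1A, had 0.09 (SE 0.11). EIF5A2, a paralog of the hypusine-bearing factor eIF5A, was dim at 43.9 ± 5.76 and 53.2 ± 9.63, with a log2 fold of 0.22 (SE 0.18).

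Many of these factors belong to the transcripts with a terminal oligopyrimidine (TOP) start, a run of C and T at the first base by which mTOR controls their translation. Promoter windows of RefSeq on GRCh38.p14, 250 bases before to 50 after a start, matched 44 of the 54 genes. A C at the start followed by 4 or more C or T on the sense strand was found in 10 of the 44 genes (22.7%). The share was 7.79% of 4790 tested genes and 5.14% of all 27305 genes with a window. All 10 starts are shown, since their folds are compared with those of the other genes; capitals mark the pyrimidine run, which begins at the start base.
EEF1A1, chr6:73521018-73521047, minus strand: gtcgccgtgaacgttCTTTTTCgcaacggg
EEF2, chr19:3985449-3985478, minus strand: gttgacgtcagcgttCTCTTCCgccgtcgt
EIF2D, chr1:206612451-206612480, minus strand: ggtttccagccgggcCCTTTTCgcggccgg
EIF2S3, chrX:24054941-24054970, plus strand: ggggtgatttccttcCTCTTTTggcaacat
EIF3D, chr22:36529152-36529181, minus strand: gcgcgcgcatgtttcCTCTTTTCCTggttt
EIF3F, chr11:7987322-7987351, plus strand: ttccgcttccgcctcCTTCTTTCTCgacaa
EIF3K, chr19:38619173-38619202, plus strand: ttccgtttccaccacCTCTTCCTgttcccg
EIF3M, chr11:32583816-32583845, plus strand: gcgcggcccagttccCTTTTCCggtcggcg
EIF4B, chr12:53006441-53006470, plus strand: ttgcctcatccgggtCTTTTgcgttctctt
WARS2, chr1:119140639-119140668, minus strand: caagacggctccgccCTTCTCaagatggcg

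These 10 genes had log2 folds from -0.28 to 0.11 with a median of 0.01, and 0 passed. The 34 genes with a window but no such start had a median of -0.01 and a range of -0.51 to 0.30. A pyrimidine run at an annotated start is a description. Where the transcripts begin in these cells, and how they are translated, was not tested.

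The cytosolic synthetases were measured by 14 probe sets for 13 genes, with a median log2 fold of -0.01, a range of -0.14 to 0.19 and 0 past the threshold. All 14 intervals lay within 1.5-fold. SARS1, which charges serine tRNAs, had the highest value. It read 516, 495 and 448 on the controls and 544, 583 and 544 after cisplatin, so the groups do not overlap, but the difference did not pass (log2 0.19, SE 0.10, adjusted p = 0.999). AARS1, the alanine enzyme, had the lowest, from 1109 ± 95.8 to 1004 ± 114, and its groups overlap (log2 -0.14, SE 0.11). WARS1, the tryptophan enzyme and also an interferon-induced gene, went from 294 ± 28.2 to 305 ± 5.85 (log2 0.05, SE 0.12). KARS1, which supplies lysine tRNAs in both the cytosol and the mitochondria, had log2 folds of 0.02 (SE 0.07) and 0.00 (SE 0.08) on its 2 probe sets.

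In some synthetases the spread among controls was wide beside the fold. TARS1, the threonine enzyme, read 589, 959 and 858 on the controls and 761, 899 and 693 after cisplatin. Its control range of 1.63-fold stands beside a log2 fold of -0.01 (SE 0.17), and without control 1 and cisplatin 2 the log2 fold of TARS1 was -0.32 (SE 0.10, adjusted p = 0.482). NARS1, the asparagine enzyme, ran from 924 to 1419 on the controls and from 1168 to 1526 after cisplatin (log2 0.11, SE 0.16). RARS1, IARS1, GARS1, YARS1 and VARS1 had log2 folds from -0.08 to -0.04, and CARS1 and HARS1 were at 0.02 and 0.00.

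**Figure D3:**
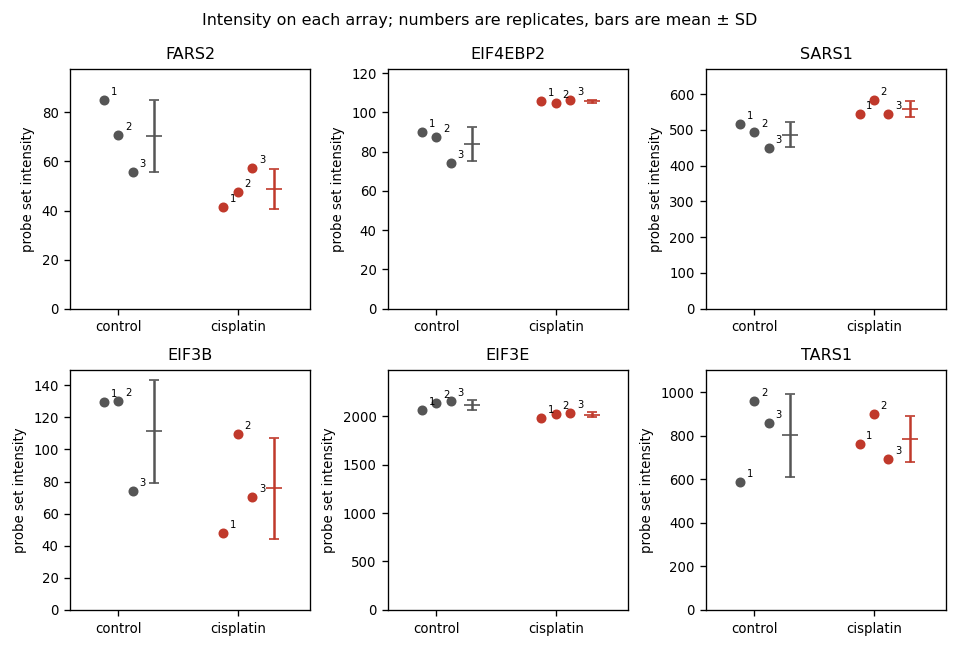
Probe set intensity (y axis, linear, from 0) on each control and cisplatin array for 6 members, with replicate numbers beside the points and the mean ± SD (n = 3) at the side. EIF4EBP2, SARS1 and EIF3E have groups that do not overlap, while those of FARS2 (55.8 to 85.0 and 41.4 to 57.4), EIF3B and TARS1 do.

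ATF4 acts through a composite element, the C/EBP-ATF response element (CARE), whose core was searched as TGATGNAA on both strands of the same windows. The letters were found in 6 of 11 cytosolic synthetase genes with a window (54.5%), in 1 of 3 mitochondrial ones (YARS2) and in 0 of 30 translation factor genes. They occur in 3.34% of tested genes and 4.46% of all genes with a window, and in 0 genes with a TOP start here. The 6 stretches below are shown because they belong to the enzymes whose folds follow, with the matched letters in capitals.
AARS1, chr16:70289675-70289704, minus strand: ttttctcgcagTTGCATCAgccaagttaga
CARS1, chr11:3057407-3057436, minus strand: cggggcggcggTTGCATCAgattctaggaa
GARS1, chr7:30594834-30594863, plus strand: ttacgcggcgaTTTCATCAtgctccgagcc
IARS1, chr9:92293692-92293721, minus strand: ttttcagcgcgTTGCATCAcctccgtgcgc
NARS1, chr18:57621804-57621833, minus strand: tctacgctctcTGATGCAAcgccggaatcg
TARS1, chr5:33440956-33440985, plus strand: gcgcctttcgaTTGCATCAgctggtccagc

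These 6 enzymes had log2 folds of -0.14 (AARS1), -0.05 (GARS1), -0.04 (IARS1), -0.01 (TARS1), 0.02 (CARS1) and 0.11 (NARS1), a median of -0.03. The other 5 cytosolic synthetases with a window had a median of 0.02 and a range of -0.04 to 0.19. Neither group had a member past the threshold. A match of letters is a description and not a site of binding.

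**Figure D4:**
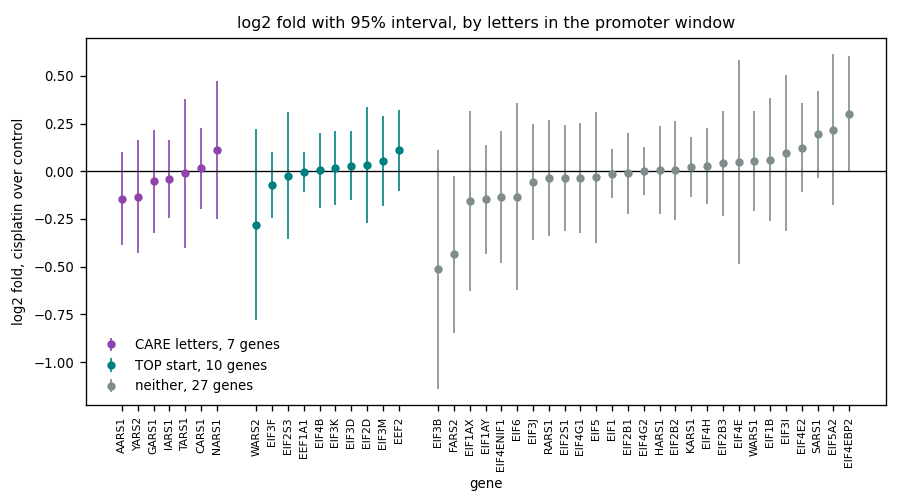
Log2 fold of cisplatin over control (y axis) with its 95% interval for the 44 member genes with a promoter window (x axis), grouped by the letters found there. The 7 genes with CARE letters lie between -0.14 and 0.11 and the 10 with a TOP start between -0.28 and 0.11, inside the range of the other genes (-0.51 to 0.30).

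The mitochondrial synthetases, encoded in the nucleus and imported, were all 3 lower, with a median log2 fold of -0.28, and 0 passed. FARS2, the phenylalanine enzyme, read 85.0, 70.6 and 55.8 on the controls and 41.4, 47.5 and 57.4 after cisplatin. The groups touch at control 3 and cisplatin 3, and the log2 fold was -0.43 (SE 0.18, unadjusted p = 0.0400, adjusted p = 0.919). It was the 1 member of 57 that was lower at an unadjusted p under 0.05, where 1.63% of all tested probe sets were. WARS2, the tryptophan enzyme, rests on a dim probe set with 30.6, 33.3 and 32.2 on the controls and 34.1, 26.6 and 14.9 after cisplatin. Cisplatin 2 and cisplatin 3 lay below all 3 controls and cisplatin 1 above them (log2 -0.28, SE 0.22). YARS2, the tyrosine enzyme, went from 616 ± 98.4 to 557 ± 36.2 (log2 -0.13, SE 0.13); without control 1 and cisplatin 2 its log2 fold was 0.00.

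The standard errors of the members ran from 0.05 (EEF1A1) to 0.28 (EIF3B) with a median of 0.12, against 0.17 over all tested probe sets. The median of the mean log2 intensity was 9.42 for members and 6.84 for all. In 10 members the highest control was over 1.5 times the lowest, and in 4 members the same was true of the cisplatin arrays. Control 1 and cisplatin 2 departed in the same direction from the other arrays of their groups in 35 of 57 members (61.4%), a share not above the 65.4% of all tested probe sets.

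**Figure D5:**
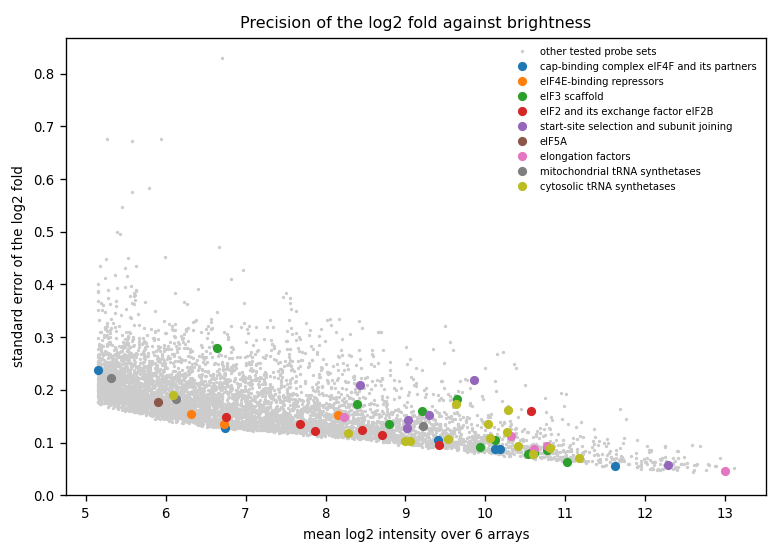
Standard error of the log2 fold (y axis) against the mean log2 intensity over the 6 arrays (x axis) for the member probe sets, coloured by role, and for all other tested probe sets in grey. Members at the bright end, such as EEF1A1, have errors near 0.05, and EIF3B stands at 0.28.

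The genes around this machinery were read from 5 lists, of which 60 of 103 genes had a probe set with a single symbol and 58 were tested. Of these, 1 rose and 57 did not pass, where 0.29% of all tested probe sets passed. An unadjusted p under 0.05 was found for 4, where 5.03% of all tested probe sets had one, and the median log2 fold was 0.01. Among 11 other factors of initiation, elongation and release, 0 passed and 0 had an unadjusted p under 0.05, with a range of -0.16 to 0.08. DPH2, an enzyme of the diphthamide modification of eEF2, was at -0.16 (SE 0.12) and TPT1, a translationally controlled protein, at 0.08 (SE 0.07). The 4 tested genes of other synthetases and their complex held GATB, a mitochondrial amidotransferase subunit, at -0.30 (SE 0.16) and FARSA, a subunit of the cytosolic phenylalanine enzyme, at -0.11 (SE 0.16). Of 3 mitochondrial translation factors, MTRF1 lay at -0.18 (SE 0.19) and MTIF2 at 0.14 (SE 0.26). In both lists 0 passed and 0 had an unadjusted p under 0.05.

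The list of mTOR and MNK control held the gene that rose, SESN1, a sestrin that restrains mTOR and a known p53 target. It read 48.2, 48.2 and 47.9 on the controls and 118, 117 and 117 after cisplatin, with no overlap (log2 1.11, SE 0.13, adjusted p = 0.00870, where 0.213% of all tested probe sets passed and were higher). Without control 2, control 3, cisplatin 1 or cisplatin 3 in turn its adjusted p was 0.0589 to 0.0790, with log2 folds of 1.11 in each, and with the replicate number as a block it was 0.153 (log2 1.11, SE 0.18). The other 14 tested genes of that list did not pass, and 12 of the 15 were higher, where 60.5% of all tested probe sets were. RPS6KA1, a ribosomal S6 kinase, had a log2 fold of 0.42 (SE 0.15, adjusted p = 0.750). MKNK2, an MNK kinase, was at 0.34 (SE 0.16, adjusted p = 0.977). The lowest of the list was MLST8 at -0.26 (SE 0.20), and RPS6 and RHEB were nearest to 0, at 0.01 and 0.02.

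Of 25 tested genes of the eIF2 kinases, their opposing phosphatase and the targets of ATF4, limma called 0, and 2 were under an unadjusted p of 0.05. Their log2 folds ran from -0.28 to 1.06 with a median of 0.01, 14 higher and 11 lower. ATF3, a stress-induced factor that p53 also regulates, read 25.2, 40.7 and 34.3 on the controls and 83.3, 63.4 and 102.6 after cisplatin (log2 1.06, SE 0.20, adjusted p = 0.0976). Of the alternative settings, ATF3 passed in 1, without control 1 and cisplatin 2 (log2 1.08, SE 0.17, adjusted p = 0.0390), while its adjusted p was 0.499 without cisplatin 3, 0.371 without cisplatin 1 and 0.386 with the replicate number as a block. TRIB3, a pseudokinase induced by ATF4, was lower at -0.28 (SE 0.11, adjusted p = 0.826). EIF2AK3, an eIF2 kinase, and CTH were at 0.41 (SE 0.27) and 0.36 (SE 0.19), and neither passed. ASNS, the asparagine synthetase gene and a defining ATF4 target, had means of 463 and 465 (log2 0.01, SE 0.11), and the log2 folds of PSAT1 and ATF4 itself were 0.01 (SE 0.11) and -0.05 (SE 0.07). CARE letters were present in the windows of 5 of the 25 genes, ATF3, ASNS, CEBPG, SLC1A5 and SLC3A2, and the last 4 had log2 folds from -0.24 to 0.02. How many of the 25 had a window was not counted, and 3.34% of tested genes with a window held the letters.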

How the data were processed

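The authors deposited 1 linear intensity for each probe set and array. For the summarisation software and scaling, nothing was given in the sources used here. The intensities run from -512.3 to 9153, and 723 of 52758 are at or below 0, 0 of them in members. Values below 0 were set to 0, 11.8 (the 10th percentile of positive values) was added, and log2 was taken. The arrays were used as deposited, since their 75th percentiles spanned 0.15 (limit 0.3). After removal of 47 control probe sets, the 6559 of 8746 at or above the 25th percentile of mean log2 were tested. Symbols came from the platform's probe table (7840 single, 388 several, 518 none), and 7838 matched RefSeq GRCh38.p14.

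The groups were compared by a two-sided moderated test in limma 3.58.1 under R 4.3.3 (lmFit, then eBayes with trend), with Benjamini-Hochberg adjustment over all tested probe sets at 0.05 (4 residual and 5.54 prior degrees of freedom). The fit was tested on simulated data. With noise from raw variances, recovery of 2-fold changes missed the criterion set for it. The noise was then drawn from moderated variances, with which recovery met the criterion but the share of false calls was above the nominal level. Such variances are of the kind that the fit assumes, and the simulated arrays were independent of each other. The simulation therefore does not show the power of the test in these data. The fit was unpaired, so p-values set the difference between groups against the spread among arrays within a group. The series description names independent experiments, but which control and cisplatin arrays share an experiment was not given in the sources used here. Folds are on the log2 scale with the added constant, which understates those of dim probe sets.

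Members, lists, roles and motifs were chosen with earlier results of these data known. Named in the text were members past the threshold or with an unadjusted p under 0.05, and the highest, lowest and brightest of each role. A list of main factors was also named. Genes whose probe sets disagree in sign beyond their standard errors were to be named too, but no gene met this. Of the main factors, EIF2B5, EIF5A, EEF2K and EPRS1 had no probe set with their symbol. The probe sets of EIF4A1, EIF4A2 and MARS1 carry several symbols and were not members. Those of EIF4A1 and EIF4A2 had log2 folds of -0.04 (SE 0.07) and -0.05 (SE 0.17). In each list of surrounding genes, those past the threshold or the 2 with the lowest p were named. Other genes were named after their values were seen. Alternatives covered scaling, the constant, the filter, the trend, a covariate, a block and left-out arrays. Python 3.11.15 and matplotlib 3.10.9 drew the plots.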

Additional observations from a re-analysis of the deposited data

How the results depend on the processing

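Under all 16 alternative settings 0 members passed in limma, with adjusted p values of 0.132 or more. With the filter at the 50th percentile only 52 of the 57 members were tested, and FARS2, EIF4E and EIF5A2 were not. The 27 probe sets named by rule gave 429 values under these settings, of which 384 kept their sign and 45 changed it. Changing the filter, the trend or the block leaves a log2 fold as it was, so values under those settings could not change sign. Only 12 of the 27 probe sets kept their sign in all settings in which they were tested. FARS2, tested under 15 of the settings, kept a log2 fold of -0.57 to -0.28, EIF4EBP2 of 0.22 to 0.35 and SARS1 of 0.12 to 0.24. An unadjusted p under 0.05, found for 1 member, was found for 2 after median centring, 2 without the trend, 8 with the ACTB 3′/5′ ratio as a covariate (14.0%, against 12.7% of all probe sets), 4 without control 1 and cisplatin 2 together (7.02%, against 7.18%) and 0 to 3 when each array was left out; the cause was not tested. The members' median log2 fold of -0.01 became -0.085 after median centring, where that of all probe sets was -0.03, and lay between -0.036 and 0.020 when each array was left out (0.020 without control 2). List genes past the threshold numbered 1, 2 without control 1 and cisplatin 2 together (ATF3 added), and 0 to 1 when each array was left out. Against 19 probe sets in all, 11 passed after median centring, 8 when no trend was fitted, 47 with the covariate and 6 to 18 when each array was left out. With a replicate block, 0 members had an unadjusted p under 0.05, 0 list genes passed, and 5 probe sets passed in all. The replicate numbers were not taken as pairs. Arrays of equal number deviated from their group means with correlations of -0.56, -0.31 and -0.12 across probe sets. These correlations cannot show which arrays share an experiment, since control 1 and cisplatin 2 stood apart within their groups. Low signal limits EIF4E, WARS2 and EIF5A2, whose intensities reached at most 59.1.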
